A study of Danio rerio with 14 samples.

Results

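Among all named genes of the zebrafish intestine in this series, 19 were lower in every library from agouti-transgenic fish than in every library from wild-type fish by a fixed margin. Counts were divided by each library's total and scaled to 1000000 reads, giving CPM. A gene was taken where its lowest wild-type value was at least 1 CPM and at least 2 times its highest transgenic value. Of the 32520 rows of the table, 41 met these numbers. Of the 41, 7 had no symbol, 14 had a symbol with a colon, as clone names do, and 1 (cyp46a1.4) belonged to the 11 name groups left out by rule, which leaves the 19. Because measured genotype values chose these genes, their genotype differences are given as a description, without a test. Named genes with a lowest wild-type value of at least 1 CPM numbered 11072, and the 19 are 0.172% of them. The mirrored rule, with the genotypes exchanged, was met by 17 of 11777 named genes, 0.144%.

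The 6 transgenic libraries came from intestine of fish labelled Tg(Xla.Eef1a1:Cau.Asip1)iim04, and the 8 wild-type libraries from intestine of Tubingen fish. By the usual naming of such constructs, a frog Eef1a1 promoter, broadly active, drives Asip1 of the goldfish in this single line. The label names the transgene and no strain, so the transgene and the background of the line cannot be told apart. Titles end in M or H, letters the labels do not explain, and these give 4 groups: 4 wild-type M, 4 wild-type H, 3 transgenic M and 3 transgenic H libraries. Age, sex and the number of fish behind a library are not in the labels, so p-values measure the spread between these libraries, which may be technical in part. The transgene itself has no row in the table. Agouti signalling protein is a secreted antagonist of melanocortin receptors, known above all for its part in pigment patterning and, in mammals, for obesity when it is made in all tissues. The exocrine pancreas of zebrafish lies scattered along the gut, and the liver next to it, so intestine can be dissected with some of either.

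Total counts were between 9847910 and 13727372 in wild-type and between 11792225 and 14091791 in transgenic libraries. The enterocyte brush-border markers had, on average, a log2 CPM between 8.12 and 9.30 in 12 libraries, but of 2.23 and 4.82 in wild-type H replicates 6 and 7. Those same libraries held the most RNA of ovary and oocyte markers, at 9.40 and 6.23, and a further 2 H libraries held some, wild-type H replicate 8 at 4.90 and transgenic H replicate 13 at 3.70. In the other 10 libraries the ovary list lay at or below -0.89. Values that rest on these 2 libraries, replicates 6 and 7 of wild-type H, are also given with both left out. Leaving out libraries cannot remove a gene from the rule, and without these 2 it found 39 named genes. The vitellogenin genes, which code for egg yolk precursors, took up 7.95% to 21.0% of all counts in the 3 transgenic H libraries and 6.18% in wild-type H replicate 8, and at most 0.0020% in the other 10. Since CPM divides by the column total, such counts lower every other gene of a library. On totals without these genes, tried after the data were seen, 15 of the 19 reached the factor of 2, and GRID2IP (1.67), RASSF2 (1.81), IGSF21 (1.90) and rnasel2 (1.97) lay under it. On totals scaled by TMM (trimmed mean of M values) factors 13 of the 19 reached the factor of 2, and the ratio of the other 6 lay between 1.355 (GRID2IP (ENSDARG00000095603)) and 1.97 (P2RY13). The genotypes thus did not overlap for any of the 19 on these 3 scales. The rule chose genes with a margin of 2, which leaves room for such shifts, so this is no independent support. The share of all named genes without overlap on these scales is not given here.

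The distance between genotypes ranged widely. From the lowest wild-type to the highest transgenic CPM the ratio ran from 2.02 to 17.3 with a median of 2.77, and it was at least 3 for 6 genes and under 2.5 for 9. Wild-type means exceeded transgenic means by 3.32-fold (siae) to 456-fold (loc100334908), with a median of 7.27-fold. That median was 6.60-fold without wild-type H replicates 6 and 7, 6.5-fold within the M libraries and 9.75-fold within the H libraries. NCKIPSD alone moved by more than 1.5 times on leaving out replicates 6 and 7, from 7.17-fold to 4.51-fold. For 6 genes at least 1 transgenic library had 0 counts. In edgeR's quasi-likelihood fit, 784 of 18619 tested genes were called for genotype (4.21%, 408 higher and 376 lower in transgenic fish), and the 19, among the 376 by their selection, had a median log2 fold change of -2.56 against -0.11 over all tested genes.

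**Figure D1:**
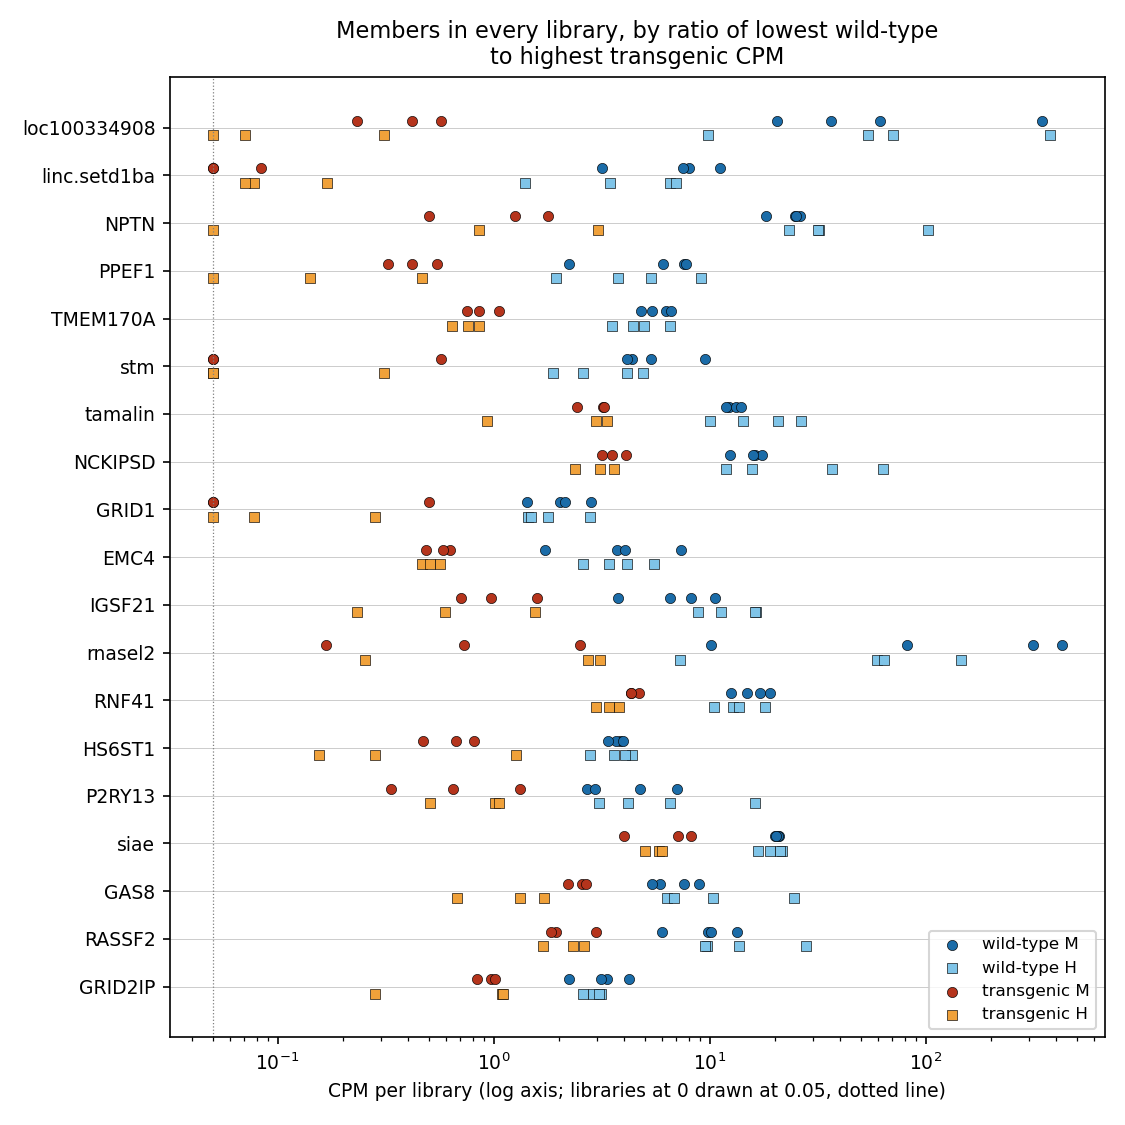
CPM of the 19 genes in each of the 14 libraries, on a log scale, with genes ordered by the ratio of the lowest wild-type to the highest transgenic value. Every wild-type library lies above every transgenic library of the same gene, from a ratio of 17.3 for loc100334908 to 2.02 for GRID2IP.

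Values below are in order of replicate number, 1 to 4 for wild-type M, 5 to 8 for wild-type H, 9 to 11 for transgenic M, and 13, 14 and 16 for transgenic H. They are CPM on column totals, with means ± SD over 8 wild-type and 6 transgenic libraries. Genes are grouped by the role of their product, most of them known from mammals, and no group as such was chosen or tested.

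A first set encodes adhesion molecules and scaffolds that in mammals are studied mainly at synapses. NPTN (ENSDARG00000103002) encodes neuroplastin, an immunoglobulin-superfamily protein that partners with plasma membrane calcium pumps and monocarboxylate carriers. It read 18.3, 26.1, 24.9 and 25.2 CPM in wild-type M libraries and 23.3, 102, 32.1 and 31.8 in wild-type H, against 1.79, 1.25 and 0.5004 in transgenic M and 0.857, 0 and 3.05 in transgenic H. All but 1 of the wild-type libraries lay close together, at 18.3 to 32.1, and replicate 6 stood far above them. The means were 35.5 ± 27.4 and 1.24 ± 1.08 CPM, a 28.6-fold difference. IGSF21 (ENSDARG00000031049), a synaptic adhesion protein of the mouse, was at 6.56, 10.6, 3.76 and 8.23 CPM in wild-type M and 16.4, 16.2, 8.84 and 11.3 in wild-type H, and at 0.977, 0.703 and 1.58 in M and 0.234, 0.594 and 1.56 in H in transgenic fish. Its wild-type M replicate 3 came nearest to the transgenic libraries, of which replicates 11 and 16 were the highest, and its means of 10.2 ± 4.41 and 0.942 ± 0.544 CPM lay 10.9-fold apart. GRID1 (ENSDARG00000074583) encodes a delta-type glutamate receptor subunit and was the lowest of all in wild-type fish, at 2.04, 2.81, 1.43 and 2.13 CPM in M and 1.45, 1.49, 1.79 and 2.79 CPM in H. Transgenic fish had 0, 0 and 0.5004 in M and 0.0779, 0 and 0.284 in H, 11 counts in all, with 3 of 6 libraries at 0. GRID1 means were 1.99 ± 0.566 and 0.144 ± 0.206 CPM, a 13.9-fold difference on few reads.

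GRID2IP (ENSDARG00000095603) encodes delphilin, a scaffold that binds a relative of that receptor in the cerebellum of mammals, and had the smallest ratio, 2.02. Its wild-type values ran from 2.23 to 4.21 CPM with a median of 3.12, and its transgenic values from 0.284 to 1.102 with a median of 0.996. Replicate 16 alone was far below the other transgenic libraries, and the means of 3.08 ± 0.579 and 0.884 ± 0.3095 CPM differed by 3.49-fold. tamalin, a scaffold that couples metabotropic glutamate receptors to trafficking proteins, was at 12.3, 13.2, 11.9 and 14.01 CPM in wild-type M and 14.3, 20.7, 26.5 and 10.02 in wild-type H. In transgenic fish it read 2.44, 3.203 and 3.25 in M and 3.35, 0.933 and 2.98 in H. Wild-type replicates 6 and 7 were the highest and transgenic replicate 14 the lowest, and the means of 15.4 ± 5.49 and 2.69 ± 0.922 CPM differed by 5.71-fold.

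A second set belongs to signalling. RNF41 encodes an E3 ubiquitin ligase that limits ErbB receptor levels. It was even among wild-type fish, at 12.5, 19.1, 14.8 and 17.1 CPM in M and 12.8, 10.5, 17.98 and 13.7 CPM in H, and among transgenic fish, at 4.32, 4.69 and 4.34 in M and 3.43, 3.82 and 2.98 in H. The means were 14.8 ± 2.99 and 3.93 ± 0.641 CPM, a 3.77-fold difference. PPEF1, a protein phosphatase with calcium-binding EF hands, read 7.58, 2.23, 7.75 and 6.09 CPM in M and 9.07, 1.95, 3.78 and 5.35 CPM in H in wild-type fish. Its transgenic libraries held 0.326, 0.547 and 0.417 in M and 0.467, 0 and 0.142 in H. Wild-type replicates 2 and 6 were the lowest, near 2 CPM, where the others were between 3.78 and 9.07. The means of PPEF1 were 5.47 ± 2.64 and 0.316 ± 0.208 CPM, 17.3-fold apart. RASSF2, a Ras-association domain protein, was at 13.3, 6.01, 9.78 and 10.2 CPM in M and 9.75, 13.6, 27.9 and 9.49 CPM in H in wild-type and at 1.95, 2.97 and 1.83 in M and 2.34, 1.696 and 2.63 in H in transgenic fish. Here wild-type replicate 7 stood above the rest and wild-type replicate 2 was the only one under 9 CPM, and the means were 12.5 ± 6.67 and 2.24 ± 0.496 CPM, a 5.59-fold difference.

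NCKIPSD, an SH3 adaptor that binds NCK and acts on actin assembly, was at 12.5, 16.3, 17.5 and 15.8 CPM in wild-type M and 11.9, 63.7, 36.7 and 15.7 in wild-type H. Wild-type replicates 6 and 7, the libraries low in enterocyte markers, were by far the highest, and the part of those cells in this was not tested. In transgenic fish it read 3.18, 3.52 and 4.09 in M and 3.12, 2.37 and 3.62 in H, and the means were 23.8 ± 17.9 and 3.31 ± 0.578 CPM. P2RY13, a receptor for ADP found on microglia and other myeloid cells, ran from 2.72 to 16.2 CPM in wild-type fish with a median of 4.46. In transgenic fish it ran from 0.334 to 1.33 with a median of 0.832. Wild-type replicate 7 was far above the others, which reached 7.07, and the means of 5.94 ± 4.45 and 0.816 ± 0.379 CPM differed by 7.27-fold.

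Enzymes of glycans come next. siae encodes sialic acid acetylesterase, which removes acetyl groups from sialic acids and is linked to B cell signalling in mammals. It was the most even of the 19 in wild-type fish, at 20.8, 19.98, 20.7 and 20.3 CPM in M and 16.7, 21.7, 21.1 and 18.98 CPM in H, with a coefficient of variation of 7.84%. Transgenic fish had 8.22, 7.11 and 4.003 in M and 5.84, 6.02 and 5.04 in H, so that means of 20.03 ± 1.57 and 6.04 ± 1.49 CPM lay 3.32-fold apart, the smallest fold of the 19. HS6ST1 (ENSDARG00000071501), which adds sulfate to heparan sulfate chains, was nearly as even, at 3.86, 3.69, 3.38 and 3.96 CPM in M and 2.799, 3.62, 4.37 and 4.07 CPM in H. Transgenic values of 0.814, 0.469 and 0.667 in M and 0.156, 1.27 and 0.284 in H spread more widely for their size, with replicate 14 the highest. HS6ST1 means were 3.72 ± 0.477 and 0.6103 ± 0.404 CPM, 6.09-fold apart.

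Products of the endoplasmic reticulum and the cilium make up a small set. EMC4 (ENSDARG00000102733), a subunit of the membrane protein complex that inserts proteins into the endoplasmic reticulum membrane, read 3.72, 7.37, 1.73 and 4.06 CPM in M and 4.15, 3.43, 2.58 and 5.498 CPM in H in wild-type fish. In transgenic fish it held a narrow band of 0.489, 0.625 and 0.584 in M and 0.467, 0.509 and 0.568 in H. The means of EMC4 were 4.07 ± 1.74 and 0.5402 ± 0.0614 CPM, 7.53-fold apart, with wild-type M replicate 3 the lowest wild-type library. TMEM170A, a membrane protein linked to the shape of the endoplasmic reticulum and nuclear envelope in human cells, was at 4.81, 6.305, 5.41 and 6.6 CPM in M and 4.44, 3.53, 6.56 and 4.97 CPM in H of wild-type fish, against 1.06, 0.859 and 0.751 in M and 0.857, 0.763 and 0.639 in H. It was even in both genotypes, and its means of 5.33 ± 1.103 and 0.821 ± 0.142 CPM differed by 6.49-fold. GAS8, a subunit of the nexin-dynein regulatory complex of motile cilia, was at 8.89, 5.92, 5.41 and 7.62 CPM in M and 6.37, 24.6, 10.3 and 6.85 CPM in H of wild-type fish, against 2.198, 2.58 and 2.67 in M and 1.32, 0.678 and 1.703 in H. Wild-type replicate 6, rich in ovary RNA, was more than 2 times any other library, and the means of 9.499 ± 6.31 and 1.86 ± 0.774 CPM differed by 5.11-fold.

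Secreted proteins and genes with no known product hold the largest folds. loc100334908 (ENSDARG00000077058), which carries a placeholder name and no known role, read 36.4, 20.6, 345 and 61.3 CPM in wild-type M and 54.2, 9.84, 70.7 and 377 in wild-type H. Replicates 3 and 8 were far above the others, and replicate 6 was the lowest. Transgenic libraries held 0.5699, 0.234 and 0.417 CPM in M and 0.312, 0 and 0.07096 CPM in H, 20 counts in all, and the means of 122 ± 149 and 0.267 ± 0.213 lay 456-fold apart. rnasel2 encodes a secreted ribonuclease of the RNase A family in zebrafish. It was at 315, 10.2, 429 and 82.1 CPM in wild-type M and 59.4, 146, 64.2 and 7.31 in wild-type H, and at 0.733, 2.5 and 0.167 in M and 2.73, 0.254 and 3.12 in H in transgenic fish. Although its means of 139 ± 153 and 1.58 ± 1.34 CPM differed by 87.8-fold, the lowest wild-type library, replicate 8, exceeded the highest transgenic one, replicate 16, by only 2.34 times.

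stm, starmaker, a secreted acidic protein that shapes the otolith crystals of the zebrafish ear, was at 4.37, 5.33, 9.55 and 4.16 CPM in M and 2.61, 4.92, 1.89 and 4.14 CPM in H in wild-type fish. It had 11 counts over all transgenic libraries, at 0.5699, 0 and 0 CPM in M and 0.312, 0 and 0 CPM in H, with 4 of 6 at 0. Its wild-type mean was 4.62 ± 2.297 CPM, and wild-type M replicate 3 was the highest. linc.setd1ba, a long noncoding RNA by its name, read 8.01, 11.2, 3.16 and 7.51 CPM in M and 6.56, 1.39, 6.96 and 3.46 CPM in H in wild-type fish. With 5 counts in all, transgenic libraries stood at 0, 0 and 0.0834 in M and 0.0779, 0.1696 and 0.07096 in H. Its wild-type mean was 6.03 ± 3.16 CPM, with replicate 6 the lowest. Both genes rest on very few transgenic reads, so their folds of 31.5 and 90.0 are imprecise. Libraries were made with a stranded kit per the labels' protocols, but whether counting used the strand is not given in the labels or notes, so reads of overlapping genes on opposite strands may not be told apart.

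Per gene length, in mean FPKM (CPM divided by gene length in kilobases), rnasel2 was the highest of the 19 in wild-type fish at 145 ± 160 and loc100334908 next at 74.0 ± 90.6, a pair whose libraries overlap. NCKIPSD followed at 10.4 ± 7.87 and siae at 8.81 ± 0.691. A mean of at least 1 FPKM was reached by 17 genes, and GRID2IP and GRID1 were below it at 0.714 ± 0.134 and 0.313 ± 0.0888. In bulk tissue fewer cells of a type and less RNA per cell cannot be told apart.

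At the edge of the rule the step was small. GAS8 (lowest wild-type 5.41 and highest transgenic 2.67 CPM, ratio 2.03), RASSF2 (6.01 and 2.97, ratio 2.03) and GRID2IP (2.23 and 1.102, ratio 2.02) were just inside it. LRRCC1 (13.2 and 6.84, ratio 1.93), NDST1 (ENSDARG00000062397; 2.81 and 1.49, ratio 1.89) and STOX1 (2.78 and 1.48, ratio 1.87) were just outside.

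**Figure D2:**
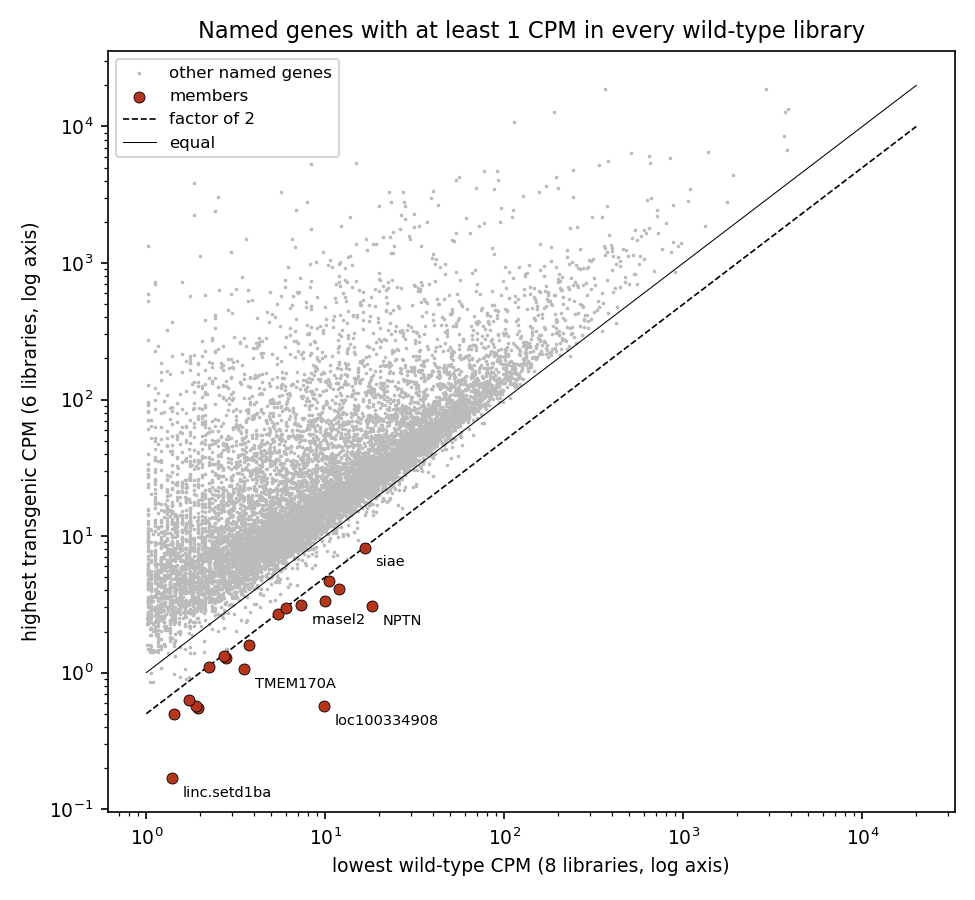
Lowest wild-type CPM against highest transgenic CPM, on log axes, for the 11072 named genes with a lowest wild-type value of at least 1 CPM, with the line of the factor of 2. The 19 genes lie beyond the line, several close to it, such as GRID2IP at 2.02 and RASSF2 at 2.03.

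Among the wild-type fish the genes differed much in spread. Their coefficient of variation over the 8 libraries had a median of 48.2%, from 7.84% (siae) to 122% (loc100334908), against 46.4% over all 11072 named genes that could have met the rule. Without wild-type H replicates 6 and 7 the median of the 19 was 23.8%. The median over the 11072 genes without these libraries was not computed, so 23.8% cannot be set against 46.4%. Replicate 6 was the lowest wild-type library for 5 of the 19 and the highest for 4. Over the 11072 named genes it was lowest for 34.0% and highest for 39.7%. Replicate 7 was highest for 4 of the 19 and for 29.2% of all.

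The letters M and H, unlike genotype, were not used to choose these genes, so this contrast was tested in the same edgeR fit. The test is not free of the rule, which leaves out genes whose levels spread widely within a genotype. A gene with a large difference between M and H was thus less likely to be among the 19. For H against M averaged over genotypes 0 of the 19 were called, with 0 at an unadjusted p under 0.05, and 0.0% of all 18619 tested genes were called. Log2 fold changes ran from -0.68 (stm) to 0.70 (NPTN), with a smallest edgeR adjusted p of 0.714. Within wild-type fish 0 were called, 0 had an unadjusted p under 0.05, and 1 of all tested genes was called (0.00537%). The smallest edgeR adjusted p there was that of NCKIPSD, 0.260, at 0.89 (SE 0.43) higher in H, where replicates 6 and 7 were the highest. NPTN was at 0.93 and rnasel2 at -1.76.

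Within transgenic fish 0 of the 19 were called in edgeR and 0 had an unadjusted p under 0.05, as 0.0% of all genes were called. Log2 fold changes ran from -1.29 to 1.88, all with an adjusted p of 1. The difference between the letter effects of the genotypes, which is also the genotype effect in H minus that in M, was called for 0 of the 19, with 0 at an unadjusted p under 0.05 and 0.0% of all genes called in edgeR. It ran from -1.40 (GAS8) to 2.88 (rnasel2), and the smallest edgeR adjusted p was 0.667. The median letter effect of the 19 was -0.00 averaged over genotypes, -0.13 in wild-type and 0.07 in transgenic fish, against 0.03, 0.08 and 0.02 over all tested genes. DESeq2 also called 0 of the 19 in each of the 4 letter contrasts, while calling 344 of 17265 genes for H against M averaged over genotypes. At so small a share 0 of 19 does not set these genes apart. The DESeq2 shares over all genes for the other letter contrasts are not given here. With 3 or 4 libraries a group, a call that was not made does not show that M and H are alike.

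Several of the genes have a second row under the same symbol, which the rule did not choose, and reads can be split between close copies by counting. For EMC4 the copy did not follow the chosen row. It (ENSDARG00000039268) was at 2.83 ± 1.15 CPM in wild-type and 4.74 ± 0.767 CPM in transgenic fish, a log2 fold change of 0.95 (SE 0.29) that was not called (edgeR adjusted p = 0.0993, and 0.0876 without wild-type H replicates 6 and 7). The sum of both rows was 6.90 ± 1.87 CPM in wild-type fish, from 5.18 to 10.7, and 5.28 ± 0.802 in transgenic fish, from 4.60 to 6.84, so the summed values overlapped. The row chosen by the rule took 31.9% to 78.4% of the sum in wild-type fish and 8.54% to 11.9% in transgenic fish. The chosen row was lower in every transgenic library, while the 2 rows together overlapped between genotypes.

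For HS6ST1 the copy (ENSDARG00000054754) was at 4.33 ± 1.51 and 2.84 ± 2.03 CPM, at -0.48 and not called (edgeR adjusted p = 0.481), and the sums of 6.41 to 11.03 in wild-type and 2.198 to 7.26 in transgenic fish also overlapped. For GRID2IP the copy (ENSDARG00000076103) was at 0.424 and 0.966 CPM, at 1.31 (SE 0.50, edgeR adjusted p = 0.186). On column totals the summed GRID2IP did not overlap, at 2.80 to 4.59 against 1.33 to 2.71 CPM, a narrow gap. Sums were not computed on the other scales. There the ratio of the chosen GRID2IP row alone fell to 1.67 without vitellogenin genes and 1.355 with TMM factors, so the sums may overlap. The copies of NPTN (ENSDARG00000043864) and GRID1 (ENSDARG00000044161) were too low to be tested, with 12 and 9 counts over the wild-type and 23 and 10 over the transgenic libraries. The copy of IGSF21 (ENSDARG00000056084) was at 0.893 and 0.237 CPM (-1.31, edgeR adjusted p = 0.478). With wild-type H replicates 6 and 7 left out its fitted value was 0.89 (SE 1.23, edgeR adjusted p = 0.737). Its mean CPM still stayed higher in wild-type fish, at 1.01 ± 1.25 against 0.237. The remaining wild-type H libraries, replicates 5 and 8, were at 0, so the sign of the fit is no reversal of the means. How alike the copies are in sequence was not analysed here, and these 6 genes are uncertain in that respect.

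**Figure D3:**
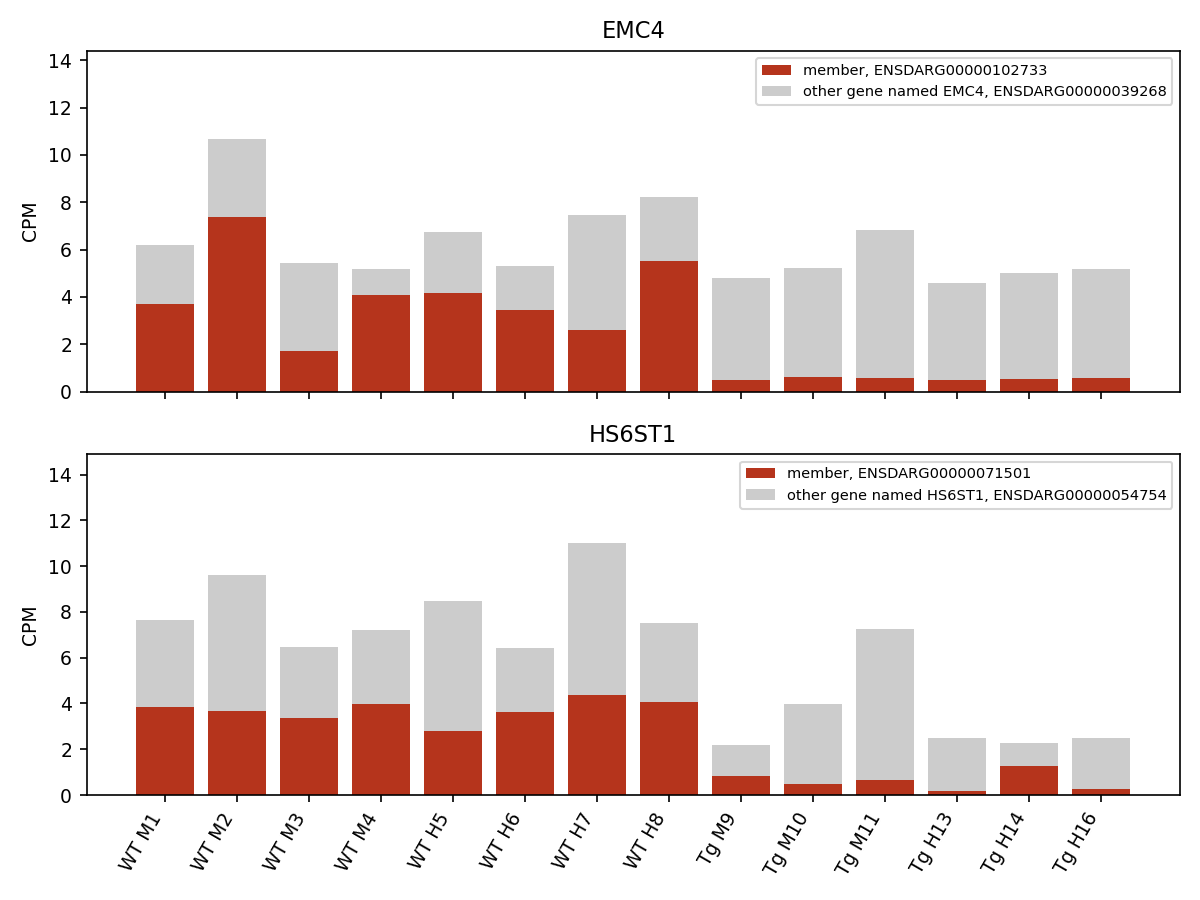
Stacked bars of CPM in each of the 14 libraries (WT wild-type, Tg transgenic) for the row chosen by the rule, in red and named member, and its same-symbol copy, in grey, for EMC4 and HS6ST1. For EMC4 the chosen row is at 0.467 to 0.625 CPM in all 6 transgenic libraries, where the copy is at 4.13 to 6.25.

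Relatives that share a symbol stem with one of the 19 but were not chosen were read from the genotype fit. Of 251 tested relatives 3 were higher and 1 was lower in transgenic fish, 1.59% against 4.21% of all genes. With all libraries these 4 carry the stem TMEM, which only says that the product spans a membrane. The count changed with the libraries and the tool, and so did the share over all genes. Without wild-type H replicate 6 it was 11, 4.42% against 7.81% of all genes. Without wild-type H replicate 5 it was 8, 3.19% against 5.27%. DESeq2 with all libraries called 18 of 251, 7.17% against 9.52%. In edgeR without wild-type H replicates 6 and 7 it was 14 of 252, 6 higher and 8 lower, which is 5.56% against 7.88% of all genes. Those 14 include 3 RNF genes and igsf9a besides the TMEM genes. TMEM94 was at 12.4 ± 4.73 CPM in wild-type and 40.1 ± 7.94 CPM in transgenic fish and rose by 1.91 (SE 0.27, edgeR adjusted p = 0.00142). TMEM260 rose by 1.23 (SE 0.23, edgeR adjusted p = 0.00871), and TMEM256 by 1.16 (SE 0.26, edgeR adjusted p = 0.0246). The call of TMEM256 was lost without transgenic M replicate 9 (0.0575) or wild-type M replicate 4 (0.0552). TMEM30B, a subunit of lipid flippases, fell by 1.36 (SE 0.25, edgeR adjusted p = 0.00774), from 25.6 ± 10.98 to 8.60 ± 1.73 CPM. Of 41 tested relatives under the stems other than TMEM, RNF and LOC, which group unrelated genes, 0 were called in edgeR, with 6 at an unadjusted p under 0.05 and 2 called by DESeq2, and their median log2 fold change was -0.02. Without wild-type H replicates 6 and 7, 1 of 42 was called, igsf9a. They include 9 rows of the EMC stem, most of them other subunits of the complex that holds EMC4 (median -0.15), 11 of the RASSF stem (median 0.06) and 7 of the IGSF stem (median -0.21).

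Relatives with the smallest p had values on both sides of 0. The ribonuclease gene rnasel3 was at 33.8 ± 34.9 CPM in wild-type and 132 ± 154 CPM in transgenic fish (log2 fold change 1.98, SE 0.84, edgeR adjusted p = 0.229), the opposite sign to rnasel2. RNF6 was at 1.62 (edgeR adjusted p = 0.0611), RASSF3 at 0.83 (edgeR adjusted p = 0.215) and P2RY11 at 0.83 (edgeR adjusted p = 0.220). PPEF2 was at 0.32 (edgeR adjusted p = 0.589). GAS1 (ENSDARG00000077298) was at -0.62 (edgeR adjusted p = 0.302). igsf9a was at -1.22 (edgeR adjusted p = 0.144) with all libraries, and it was called as lower without wild-type H replicate 6 (-1.40, edgeR adjusted p = 0.00104) and without replicates 6 and 7 (-1.53, SE 0.13, edgeR adjusted p = 7.88e-05). Without wild-type H replicate 8 RNF6 was called as higher (edgeR adjusted p = 0.0173). The gene loc101882496, which shares no more than a placeholder name, was at -2.66 (edgeR adjusted p = 0.0919). With all libraries edgeR called 0 of these 8, with 6 at an unadjusted p under 0.05. DESeq2 called 3 of them, RNF6 as higher and igsf9a and loc101882496 as lower. Each of the 8 was picked as the relative with the smallest p of its stem. That choice raises both counts, so they say nothing about relatives at large. The 8 also leave out TMEM94, the relative with the smallest p of the TMEM stem, which edgeR called. They leave out the same-symbol copies of EMC4, HS6ST1 and GRID2IP too, which are described above. In the list of secreted ribonucleases 0 of 3 other tested genes were called in edgeR and 0 in DESeq2, with 1 at an unadjusted p under 0.05 and a median of 0.58, and in that of neuroplastin and basigin the 1 other tested gene, BSG, was at -0.02.

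A list of urate and purine breakdown was read because urahb, an enzyme of urate breakdown, had been seen among the lowest genes of these data. Of 13 tested genes 0 were higher and 1 was lower in edgeR, with 4 at an unadjusted p under 0.05, and DESeq2 called 1 higher and 2 lower. Over all genes edgeR called 4.21% and DESeq2 9.52%. The gene that edgeR called is urahb itself, at 6.13 ± 4.58 CPM in wild-type and 0.436 ± 0.639 in transgenic fish (-4.57, SE 0.89). Because urahb prompted the list, its call is no result about the list and is given without a p-value. The lowest wild-type value of urahb, 1.65, and its highest transgenic value, 1.48, kept it outside the 19.

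Because RNA of liver and pancreas varied between libraries, each gene was set against the level of marker lists over the 8 wild-type libraries. None of the 19 is in a marker list. Of 12 lists, the 3 whose libraries fall into separate clusters (enterocyte, ovary and vitellogenin) were left out, and 171 relations were computed, with exact permutation of the libraries and adjustment over all 171. For Pearson's r 0 passed, with 21 at an unadjusted p under 0.05, and for Spearman's rho 0 passed, with 15. The smallest p was that of rnasel2 with liver markers, r = 0.955 (exact permutation p = 0.000546, adjusted 0.0933) and rho = 0.952 (exact permutation p = 0.00114, adjusted 0.195). Without the 2 libraries farthest from the median of the list r was 0.965 and rho 0.943, and without wild-type H replicates 6 and 7 they were 0.956 and 0.943. loc100334908 with exocrine pancreas markers came next, r = 0.965 (exact permutation p = 0.00114, adjusted 0.0975) and rho = 0.762 (exact permutation p = 0.0368, adjusted 0.483). Without the 2 farthest libraries r was 0.877 and rho fell to 0.429, so the rank order rests on those libraries. Without wild-type H replicates 6 and 7 r was 0.967 (exact permutation p = 0.0125) and rho 0.771 (exact permutation p = 0.103). Within M or within H alone 4 wild-type libraries are too few for such a value.

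The levels of those markers overlapped between genotypes. Liver markers had a mean log2 CPM of 3.53 to 9.18 in wild-type libraries and 6.11 to 9.66 in transgenic ones, and exocrine pancreas markers of 5.26 to 10.9 and 6.25 to 9.51. Both genes were chosen for being lower in each transgenic library, and the part of liver or pancreas RNA in that was not tested. The same 2 relations, picked in wild-type fish, were read over the 6 transgenic libraries, on log2(CPM + 0.05). There rnasel2 ran with liver markers at r = 0.964 (exact permutation p = 0.0125, adjusted 0.297), and 0.996 without the 2 farthest libraries. loc100334908 ran with pancreas markers at r = 0.911 (exact permutation p = 0.0125, adjusted 0.297), which rests on the farthest libraries, since it was 0.320 without them. Other relations had a smaller p there, the smallest being GAS8 with smooth muscle markers, r = 0.995 (exact permutation p = 0.00139, adjusted 0.2375). Of these 171 transgenic relations 0 passed in either measure, with 19 at an unadjusted p under 0.05 for r and 7 for rho. With 720 pairings no p can be smaller than 0.00139. A single relation at that p did not pass after adjustment, so the 0 says little.

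The last view is of the rows that lie beside the genes. Neighbouring rows of the table mostly share a chromosome, as 98.8% of neighbouring placed rows did in the GRCz12tu assembly. That build is other than that of the submitters' notes, placed 16968 of the rows and was used for row order only. This share does not show the position of rows within a chromosome. A match by symbol did not put rnasel2 and loc100334908 on the same chromosome of it, so their neighbours are neighbours by row. The 5 tested rows on each side of the 19 gave 181 neighbours that are not among them, of which 11 were higher and 16 lower in transgenic fish in edgeR. That is 14.9% against 4.21% of all genes. Around rnasel2 and loc100334908, 33 tested rows apart, 6 of 20 neighbours were higher and 9 were lower, 75.0%. For the other 17 genes it was 5 higher and 7 lower of 161, 7.45%. Without wild-type H replicates 6 and 7 the shares were 70.0% and 12.7%, against 7.88% of all genes. Leaving out 1 library gave 10 to 15 called neighbours of the first 2 genes. For the other 17 it gave 7, without transgenic H replicate 14 or wild-type M replicate 1, to 20, without wild-type H replicate 6. The share over all genes moved too. It was 4.35% against 2.79% of all genes without transgenic H replicate 14, and 12.8% against 7.81% without wild-type H replicate 6. DESeq2 with all libraries called 30 of 161 neighbours of the other 17, 18.6% against 9.52% of all genes. Of the 20 neighbours of the first 2 genes it called 13. The view of neighbours was chosen after the data were seen, and it shares the genotype contrast with the rule. It is also not free of the rule's values. Beside rnasel2 and loc100334908, sc:d217, si:ch73-44m9.1, zgc:113298, si:ch211-274k16.9 and ENSDARG00000099511 met both numbers of the rule. They were left out only for a colon in the symbol or for want of a symbol. Their calls thus follow from values the rule used, and they raise the shares of 14.9% and 75.0%.

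Beside loc100334908 and rnasel2 lay genes at or near 0 in 1 genotype. sc:d217 was at 29.9 CPM in wild-type fish, from 20.5 to 44.2, and had 0 counts in all 6 transgenic libraries. It met both numbers of the rule and lacks only a name without a colon, so its difference is given without a test. si:ch73-44m9.1, at 3.28 to 6.27 CPM, and the elastase gene cela1.7, at 0.776 to 47.3 CPM in wild-type fish, were also at 0 in all 6. Beside rnasel2, zgc:113298 went from 9.28 to 0.0658 CPM and si:ch211-274k16.9 from 7.61 to 0.0260 CPM. In contrast, si:dkey-19a16.12 had 0 counts in all 8 wild-type libraries and 1.27 to 2.61 CPM in the transgenic ones (edgeR adjusted p = 0.000629).

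Wild-type M replicate 1 went against its genotype for several rows here. It was not the only such library, since wild-type H replicate 6 lay inside the transgenic range for si:ch73-44m9.2. Values of si:ch211-274k16.6 and si:dkey-19a16.2 also overlapped between genotypes. si:ch211-59h6.1, next to loc100334908, was at 18.4 CPM in wild-type M replicate 1, against 0 to 0.397 in the other 7 wild-type libraries and 23.9 to 37.0 in the transgenic ones. ENSDARG00000071629 was at 9.25 CPM in that library, 0 in the other 7 and 15.5 to 17.8 in transgenic fish. Near rnasel2, ENSDARG00000090882 was at 126 CPM in wild-type M replicate 1, at 0.186 to 10.2 in the other 7 and at 121 to 175 in the transgenic libraries. Genes at 0 in transgenic fish were detected in that library, at 20.5 CPM for sc:d217 and 3.28 CPM for si:ch73-44m9.1, the lowest wild-type value of each. ENSDARG00000099511, at 0 to 0.170 CPM in transgenic fish, was at 18.8 CPM in wild-type M replicate 1 and at 29.9 to 45.8 in the other 7. Some other neighbours did not lean to the transgenic level in that library. zgc:113298 was at 14.4 CPM, its highest wild-type value. si:ch211-274k16.9 at 9.76 CPM and cela1.7 at 2.33 CPM lay within the range of the other wild-type libraries. si:dkey-19a16.12, higher in transgenic fish, was at 0 in it. rnasel2 and loc100334908 themselves were at 315 and 36.4 CPM in it, within the range of the other wild-type libraries.

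Elsewhere some of the genes had a called neighbour that moved with them, and others had one that moved against them. tamalin and RNF41 lie 2 rows apart, with DGKA (ENSDARG00000060626) between them at -0.37 and not called with all libraries (edgeR adjusted p = 0.671). In the fit that omits wild-type H replicates 6 and 7, DGKA was called as lower, at -0.78 (SE 0.12, edgeR adjusted p = 0.00318). GRID2IP lies between ZDHHC4, a palmitoyltransferase that fell from 18.2 to 6.22 CPM (-1.34, SE 0.19, edgeR adjusted p = 0.00151), and RGS9 (ENSDARG00000045156), a regulator of G protein signalling at -2.72 (SE 0.53, edgeR adjusted p = 0.0108). Near linc.setd1ba, DGCR2 fell from 4.23 to 0.620 CPM (-2.55, SE 0.45, edgeR adjusted p = 0.00595). Next to PPEF1, si:dkey-163f14.6 fell from 6.74 to 0.800 CPM (-2.91, SE 0.41, edgeR adjusted p = 0.00142). Around NPTN the 2 called neighbours rose, etfbkmt from 3 counts in wild-type to 78 in transgenic libraries and ugt5a2 by 3.50 (SE 0.82, edgeR adjusted p = 0.0295). pard6a, near TMEM170A, was at -3.07 (edgeR adjusted p = 0.0295), which was not called without wild-type H replicates 6 and 7 (0.0656). EMC4, GAS8 and RNF41 each had 1 called neighbour, which was higher in transgenic fish, against the gene itself. HS6ST1 and siae each had 1 called neighbour, which was lower. For 7 of the 19 genes no neighbour was called.

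**Figure D4:**
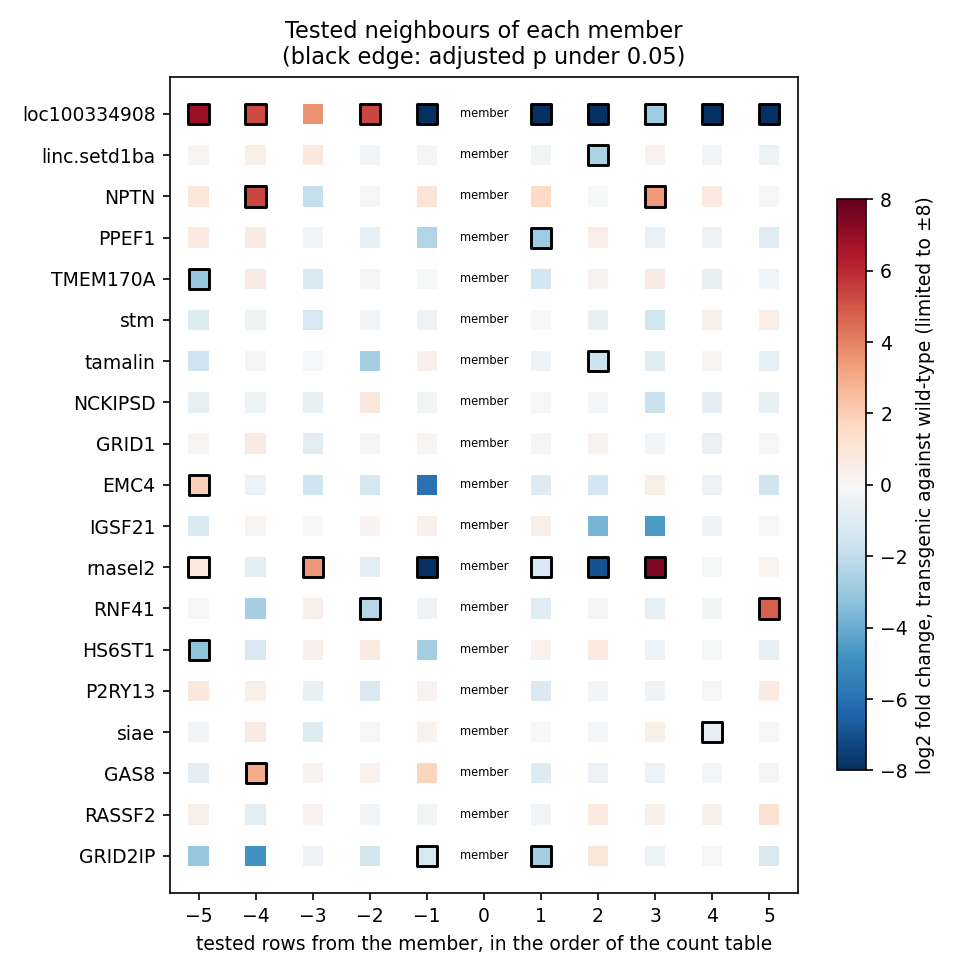
Genotype log2 fold change (transgenic against wild-type) of the 5 tested rows on each side of each of the 19 genes, by row offset, with a black edge where the adjusted p of edgeR is under 0.05; tamalin and RNF41 also appear as each other's neighbours. Called neighbours make up 75.0% around rnasel2 and loc100334908 and 7.45% around the other 17 genes. Several called neighbours of rnasel2 and loc100334908 met the numbers of the rule themselves, which raises the first share.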

How the data were processed

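Intestinal polyadenylated RNA was extracted with Trizol and made into libraries with a stranded kit, per the labels' protocols. The submitters' processing notes name STAR 2.7.3a, featureCounts 1.6.3, FastQC and edgeR, and the builds GRCz11, GRCm38.p6 and mm10 with no role for any. All identifiers are those of zebrafish. The authors deposited raw counts per gene, whole numbers without normalization, for 14 libraries in 4 groups (genotype by title letter). The FPKM values deposited by the authors are the same counts divided by 1 length per gene and by the column total, so they hold no independent information. Total counts of 9847910 to 14091791 set the precision, and values under 1 CPM rest on few reads. Symbols came from a supplied table, which named 29201 of 32520 identifiers.

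CPM used column totals. The members and lists were chosen with earlier results of these data known. Tests used edgeR 4.0.16 in R 4.3.3 on counts (filterByExpr on the 4 groups, TMM factors, 1 mean per group over all 14 libraries, glmQLFit and glmQLFTest), with Benjamini-Hochberg adjustment over 18619 genes and a threshold of 0.05. A log2 fold change above 0 means a higher level in transgenic fish, or in H. The SE is the absolute log2 fold change divided by the square root of F. The fit was tested on simulated data. Genes given by library were the 12 with the largest ratio of lowest wild-type to highest transgenic CPM and the 12 with the highest mean wild-type FPKM. Relatives share a symbol without trailing numbers and copy letters. Neighbours and relations with marker lists (mean log2 CPM, prior count 2) were added after the data were seen. Alternatives were RLE size factors, no filter, DESeq2 1.42.0, leaving out libraries, other limits of the rule and, added after the data were seen, totals without vitellogenin genes. The M and H titles share no replicate numbers, so no sample is paired. No sequence or genome coordinate is given.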

Additional observations from a re-analysis of the deposited data

Results flagged for a closer look

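Each of the 19 genes was examined for a library far from the others of its group, over 76 combinations of gene and group, and 10 were found, where chance gives about 1 in 20 for independent, normally distributed values. Here CPM is skewed and the groups are nested, so the rate for these data was not measured. loc100334908 was at 345 CPM in wild-type M replicate 3, with the other wild-type M libraries at 20.6 to 61.3, and at 377 CPM in wild-type H replicate 8, with the other wild-type H libraries at 9.84 to 70.7. These 2 libraries were also the highest in exocrine pancreas markers, at a mean log2 CPM of 10.02 and 10.9 against at most 7.70 in the other wild-type libraries, and the part of pancreas RNA in this was not tested. NPTN reached 102 CPM in wild-type H replicate 6, where all other wild-type libraries lay at 18.3 to 32.1, and was low within wild-type M at 18.3 CPM in replicate 1, against 24.9 to 26.1. In the other wild-type libraries GAS8 lay at 5.41 to 10.3 CPM, and it reached 24.6 in wild-type H replicate 6, which held the most ovary RNA. In wild-type H replicate 7, P2RY13 was at 16.2 CPM against 2.72 to 7.07, and RASSF2 at 27.9 CPM against 6.01 to 13.6. stm was at 9.55 CPM in wild-type M replicate 3 against 1.89 to 5.33. GRID2IP was at 0.284 CPM in transgenic H replicate 16 against 0.834 to 1.102 in the other transgenic libraries.

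The 15 called neighbours of rnasel2 and loc100334908 were examined in the same way within each genotype, 30 combinations in all, and 9 were found. In wild-type M replicate 1, 4 neighbours that were higher in transgenic fish stood apart from the other 7 wild-type libraries. si:ch211-59h6.1 was at 18.4 CPM, ENSDARG00000071629 at 9.25 and ENSDARG00000090882 at 126, as described above, and a further row without a symbol beside loc100334908 was at 2.62 CPM with 0 in the other 7 and 2.69 to 3.65 in the transgenic libraries. For that last row the wild-type library lay just under the transgenic range, for si:ch211-59h6.1 and ENSDARG00000071629 it lay clearly under it, and for ENSDARG00000090882 it lay inside it. Whether this library differs from the other wild-type libraries in its DNA here cannot be told from gene counts and was not tested. Among the other neighbours, si:ch73-44m9.2 was at 0.0928 CPM in wild-type H replicate 6 against 2.56 to 4.75, and sc:d217 at 44.2 CPM in wild-type H replicate 7 against 20.5 to 31.7. The value of si:ch73-44m9.2 lay inside its transgenic range of 0 to 0.834 CPM. si:ch211-59h6.1 was at 37.0 CPM in transgenic M replicate 9 against 23.9 to 28.8. si:ch73-44m9.3 and si:ch211-274k16.9 were at 0.0779 and 0.156 CPM in transgenic H replicate 13 and at 0 in the other transgenic libraries.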

How the results depend on the processing

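The number of genes that meet the rule depends on its limits. With a factor of 1.5 it was 36 and with a factor of 4 it was 3, with a lowest wild-type value of 5 CPM it was 9 and with 0.5 CPM it was 21, and on TMM-scaled totals it was 13. Leaving out 1 library gave 19 to 34, the highest without wild-type H replicate 6. It was 39 without wild-type H replicates 6 and 7, 73 with the M libraries alone and 76 with the H libraries alone. Leaving out libraries can only add genes to the rule. On totals without the vitellogenin genes, an alternative chosen after seeing the data, it was 15. Over all genes the genotype calls numbered 1772 with DESeq2 and 1474 without wild-type H replicates 6 and 7, and 483 (without transgenic M replicate 9) to 1435 (without wild-type H replicate 6) on leaving out 1 library. Calls for H against M averaged over genotypes were 344 with DESeq2 and 0 to 173 on leaving out 1 library, the highest without wild-type H replicate 5, against 0 in edgeR. The cause was not tested. Of the 19 genes 0 were called in each of the 4 letter contrasts under all 18 alternatives. Few of all genes were called for H against M averaged over genotypes, so this does not set the 19 apart. For the other letter contrasts the shares over all genes under these alternatives are not given here, so their 0 calls cannot be weighed. Single letter effects changed sign without a call on either side in 130 cases. No paired analysis was possible because the groups share no replicate numbers. Low transgenic counts limit what can be seen between M and H in transgenic fish.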
